A study of Mus musculus with 16 samples.

Results

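The 10 genes described here were Gfap, Aqp4, Slc1a2, Slc1a3, Glul, Fabp7, Gja1, S100b, Aldh1l1 and Apoe, which are used as markers of astrocytes in the spinal cord or of satellite glia in the dorsal root ganglion (DRG). Members were matched by gene symbol, and each symbol matched 1 of the 53465 genes of the count table. Ribosome footprints and poly(A)+ mRNA had been sequenced from the same lysates of lumbar DRG or of dorsal lumbar spinal cord, in C57BL/6J females that had surgery at an age of 8 weeks and were killed 30 days after it. The mice had spared nerve injury (SNI), done on both sides, in which the sural branch of the sciatic nerve is left whole while its other branches are injured, or sham surgery. The 4 groups of tissue and surgery (sham DRG, SNI DRG, sham cord and SNI cord) each had 2 lysates, and each lysate pooled tissue from 10 mice, so n = 2 pools in every group. No transgene, Cre driver or drug was part of any group. The p-values therefore measure the spread between pools and not between mice, and in bulk tissue a lower number of cells of a type and less RNA per cell cannot be told apart.

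Astrocytes take up glutamate from synapses with the transporters encoded by Slc1a2 and Slc1a3 and turn it into glutamine with glutamine synthetase, encoded by Glul. They are joined by gap junctions of connexin 43, encoded by Gja1, and line blood vessels with the water channel encoded by Aqp4. Gfap encodes their intermediate filament protein, and more of it is the usual sign of a reactive astrocyte. The DRG lies outside the central nervous system and has no astrocytes. Satellite glia, which derive from the neural crest, wrap the cell body of each sensory neuron there and share many of these genes, and Fabp7 and Apoe, which encode a fatty acid binding protein and a lipid carrier, are among the most used markers of satellite glia. S100b, a calcium-binding protein, is made by astrocytes, satellite glia and Schwann cells, and Aldh1l1, a folate enzyme, is a common marker of astrocytes.

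Depth differed between libraries, with 18176471 to 28553113 reads in genes for mRNA and 6898056 to 21613483 for footprints, and the shallowest DRG library was sham footprint replicate 1 with 7467803. All 10 genes passed the filter on low read numbers in every comparison. Levels are given as CPM, the read count of a gene scaled to the library's reads in genes after TMM normalization within each assay, and the values of replicates 1 and 2 are given in that order. A gene is called where the adjusted p (Benjamini-Hochberg over all genes tested, edgeR) is under 0.05. The labelled tissues were checked on other genes. Of 16 sensory neuron genes, 15 were lower in sham cord than in sham DRG, while all 12 oligodendrocyte genes and 10 of 12 spinal cord neuron genes were higher in cord.

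Gfap lies on chromosome 11 (chr11:102887336-102900912, minus strand, GRCm38, GENCODE M21) and Slc1a2 on chromosome 2 (chr2:102658659-102790784, plus strand). Among the 10 genes, this pair fell most in DRG mRNA after SNI. The sequence before their RefSeq starts is therefore shown (GRCm38.p6, 250 bases before the start and 20 after it, 5′ to 3′). Capitals mark a match to TTCNNNGAA, the core of a STAT factor motif, searched on both strands.
Gfap, chr11:102897181-102897450, minus strand: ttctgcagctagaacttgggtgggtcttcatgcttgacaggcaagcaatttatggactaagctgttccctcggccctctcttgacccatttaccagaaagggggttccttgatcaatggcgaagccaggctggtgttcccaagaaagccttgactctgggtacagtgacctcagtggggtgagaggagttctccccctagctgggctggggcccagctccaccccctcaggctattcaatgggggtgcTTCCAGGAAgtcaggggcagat
Slc1a2, chr2:102706188-102706457, plus strand: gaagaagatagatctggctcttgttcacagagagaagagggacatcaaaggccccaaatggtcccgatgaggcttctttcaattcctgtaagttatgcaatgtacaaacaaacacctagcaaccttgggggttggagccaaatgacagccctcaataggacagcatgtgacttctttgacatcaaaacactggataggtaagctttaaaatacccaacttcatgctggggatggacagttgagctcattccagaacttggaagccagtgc
The match in Gfap begins 2 bases before the start, and the Slc1a2 window holds none. Of 32851 RefSeq windows of this length, 7.58% hold the motif. The genome tables gave such windows for 9 of the 10 genes, and Slc1a3 was the only other gene of the 9 with a match. The windows of Gfap and Slc1a2 hold neither TATAAA, found in 12.9% of windows, nor the Sp1 motif GGGCGG, found in 34.1%, on either strand. Both windows lie inside the GENCODE spans given above, that of Slc1a2 far from the outer start of the gene. The sequence before the outermost GENCODE start of these genes was not searched. These are matches of letters and not sites of binding.

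In the sham DRG, Apoe and S100b stood far above the other genes per length. Per kb of the exonic length given in the table, Apoe mRNA was at 1489 ± 16.5 CPM (SD, n = 2), S100b at 918 ± 8.75, Fabp7 at 178 ± 2.61 and Glul at 141 ± 0.420. The other 6 genes lay between 1.97 and 5.97 CPM per kb, in the order Gja1, Slc1a2, Gfap, Aqp4, Aldh1l1 and Slc1a3, and among neighbours in this order the replicates overlapped for Gfap and Aqp4. In the sham cord, Apoe was again first, at 868 ± 23.5 CPM per kb, before S100b at 593 ± 15.3 and Glul at 428 ± 0.0343. Slc1a2 followed at 230 ± 7.36 and Gfap at 213 ± 2.42, then Aqp4 at 86.8 ± 1.08, Gja1 at 45.2 ± 0.470, Fabp7 at 19.9 ± 0.302, Aldh1l1 at 12.8 ± 0.234 and Slc1a3 at 11.3 ± 0.623. No neighbours overlapped in the cord. The exonic length in the table joins all transcripts of a gene, so a gene with long and rarely used exons is placed lower by it, and for Aqp4 the table's 5082 bases are fewer than the 6233 of GENCODE M21.

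**Figure D1:**
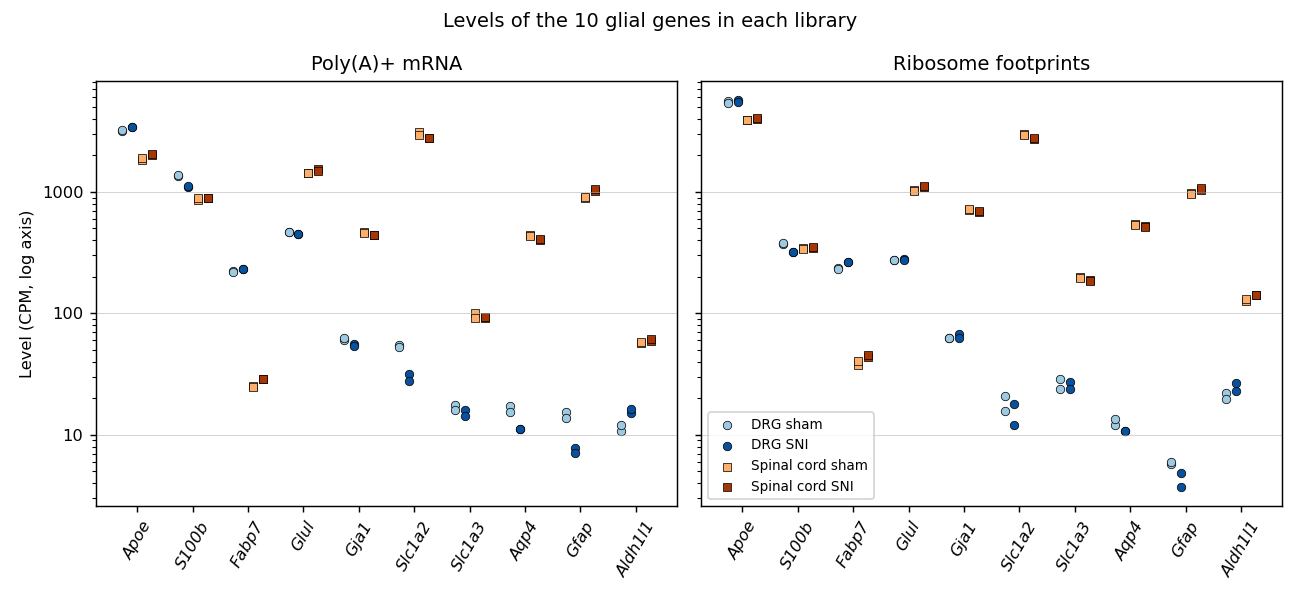
Level of each of the 10 genes in each library, in CPM on a log axis, for mRNA (left) and ribosome footprints (right), with 1 point per pool. Circles are DRG and squares spinal cord, light for sham and dark for SNI. Fabp7, S100b mRNA and Apoe are higher in DRG, the other genes are higher in cord, and the distance between tissues is larger than that between sham and SNI for all genes but S100b footprints.

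The sham tissues were compared next, to see which glial genes belonged to which tissue. All 10 genes differed between sham cord and sham DRG in mRNA, with 7 higher in cord and 3 higher in DRG, and the same holds for footprints. The background is high here, since 83.9% of 15660 genes differed in mRNA (42.9% higher and 41% lower in cord) and 78.4% of 13546 in footprints (39.4% higher and 39.1% lower), so the sizes say more than the calls. The median log2 difference, cord over DRG, was 2.44 for mRNA over the 10 genes and 0.02 over all genes tested.
Gfap mRNA was at 891 and 906 CPM in sham cord and at 15.5 and 13.8 CPM in sham DRG, which rest on 304 and 244 reads. The log2 difference was 5.93 (standard error 0.0376, adjusted p = 2.7e-61, edgeR). Counting the reads alone gives an error of 0.062 here. For 7 of the 10 genes the edgeR standard error was below the counting error in this comparison, in mRNA and in footprints alike. That standard error is worked back from the F statistic of the test, and at gaps this wide it can lie below the counting error through this alone. These adjusted p-values may be too small, but the 2 errors do not settle it at such gaps. Slc1a2, the main glutamate transporter of the cord, was at 3088 and 2952 CPM in cord and at 54.9 and 52.8 CPM in DRG, a log2 difference of 5.81. Aqp4 was at 445 and 437 CPM in cord and 17.1 and 15.5 CPM in DRG, a log2 difference of 4.75. These were the genes with the widest gap between tissues.
Genes of the shared glial machinery had a smaller gap. Gja1 was at 467 and 460 CPM in cord and 60.1 and 62.3 CPM in DRG, and Slc1a3 was at 99.9 and 92.4 against 17.5 and 16.0 CPM. Aldh1l1 was at 57.1 and 58.6 CPM in cord and at 10.7 and 11.97 CPM in DRG, and Glul at 1421 and 1421 against 469 and 467 CPM. The log2 differences were 2.92, 2.52, 2.35 and 1.60 in this order, and the tissues did not overlap for any of these genes.
Fabp7, the satellite glia marker, went the other way. It was at 25.1 and 24.6 CPM in cord and at 225 and 220 CPM in DRG, a log2 difference of -3.16 (standard error 0.0370, adjusted p = 2.4e-50, edgeR). Apoe was at 1821 and 1892 CPM in cord and 3159 and 3209 CPM in DRG, a log2 difference of -0.78. S100b was at 864 and 897 CPM in cord and 1354 and 1372 CPM in DRG, a log2 difference of -0.63. In footprints the S100b difference shrank to -0.14, and this call was lost at a fixed biological coefficient of variation of 0.1.

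Genes from lists of related glial genes were compared between the sham tissues as well. Of 32 other astrocyte genes, 31 were higher in cord and 1 was lower, with a median log2 difference of 2.81. The largest were Slc7a10, an amino acid transporter, at 5.91, the zinc transporter Slc39a12 at 5.82 and the growth factor receptor Fgfr3 at 5.72. Of 12 other satellite glia genes, 7 were higher in cord and 5 in DRG, with a median of 0.68. Among them the sodium channel gene Scn7a, at -5.25, was far higher in DRG, while the potassium channel gene Kcnj10, at 3.18, was higher in cord. All 4 partners of Gfap in the intermediate filament network, Vim, Nes, Synm and Plec, were lower in cord, with Vim at -2.66.

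The DRG level of each gene was set against its sham cord level, because Gfap, Slc1a2 and Aqp4 had the widest gap between the tissues. In the sham DRG, Gfap mRNA stood at 1.63% of the sham cord level, Slc1a2 at 1.78% and Aqp4 at 3.70%. In the SNI DRG these shares were 0.832%, 0.989% and 2.54%. Both lists of genes made by other cells of the cord held genes at nearly the same share. Of 12 oligodendrocyte genes, 6 lay between 1% and 2% of the cord level in the sham DRG, none lay lower, and the lowest was Mog, a myelin protein of oligodendrocytes, at 1.28%. Of 12 spinal cord neuron genes, 6 lay in this range too and none lower, among them the glycine transporter Slc6a5 at 1.65% and the GABA-synthesizing enzyme Gad2 at 1.63%. In the SNI DRG, Mog was at 0.354%, Mobp at 0.206%, Slc6a5 at 0.714% and Gad2 at 0.922%. Over the whole lists, 9 of 12 oligodendrocyte genes had a lower share in the SNI DRG and the median went from 2.80% to 2.11%, while Cnp, Aspa and Cldn11 had a higher one. Of the spinal cord neuron genes 11 of 12 had a lower share, with a median of 4.14% in sham and 3.54% in SNI, and Gbx1 had a higher one. Of the 32 other astrocyte genes, 4 lay between 1% and 2% in the sham DRG, namely Fgfr3, Slc7a10, Cldn10 and Slc39a12, and these were at 1.35% to 1.64% in the SNI DRG.
The other 7 glial genes were well above this band in the sham DRG. Gja1 was at 13.2% of the cord level, Slc1a3 at 17.5%, Aldh1l1 at 19.6%, Glul at 32.9%, S100b at 155%, Apoe at 172% and Fabp7 at 896%. In footprints the shares of Gfap, Slc1a2 and Aqp4 were lower, at 0.607%, 0.616% and 2.37%. For the cord genes Mog, Slc6a5 and Gad2 they were 0.326%, 0.411% and 0.551%.
The summed level of the 12 oligodendrocyte genes was 1547 to 1567 CPM in sham and 1292 to 1311 CPM in SNI DRG mRNA, against 18761 to 18770 CPM in sham cord. The summed level of the 12 spinal cord neuron genes was 234 to 238 CPM in sham and 196 to 201 CPM in SNI DRG. In footprints the oligodendrocyte sum was not lower in SNI, with 1103 to 1179 CPM in sham and 1164 to 1201 CPM in SNI DRG, while that of the spinal cord neuron genes was 172 to 178 CPM in sham and 147 to 152 CPM in SNI. Of the genes tested in DRG footprints, 2 of 6 oligodendrocyte genes rose and none fell, and 2 of 3 spinal cord neuron genes fell. No gene of either list was at 0 in both mRNA libraries of a group. Whether cord RNA or cord tissue in the DRG pools had a part in the Gfap, Slc1a2 and Aqp4 values was not tested.

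**Figure D2:**
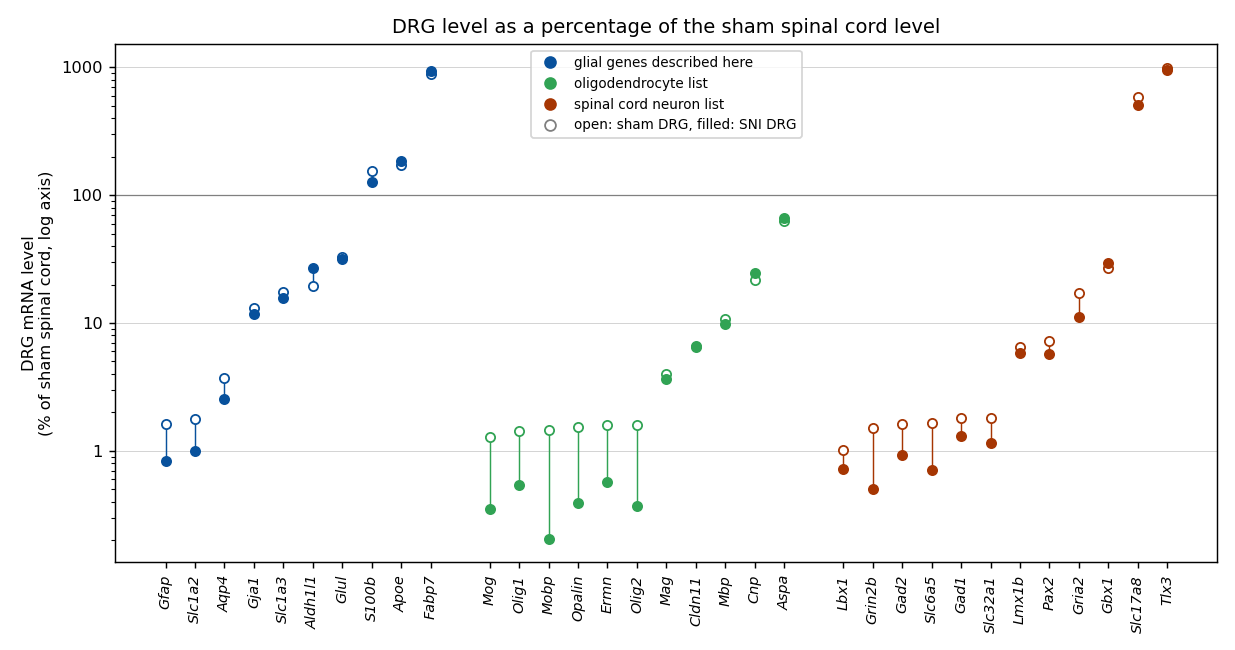
DRG mRNA level of each gene as a percentage of its level in sham cord, on a log axis, for the 10 glial genes (blue), 11 of the 12 oligodendrocyte genes (green) and 12 spinal cord neuron genes (brown), as means of 2 pools. Open points are sham DRG, filled points SNI DRG, and a line joins both. Gfap and Slc1a2 sit with 6 genes of each of the other lists between 1% and 2% in sham, and all 14 are lower in SNI.

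After SNI, Gfap, Slc1a2 and Aqp4 had the largest falls among the 10 genes in the DRG, and Aldh1l1 the largest rise. Of the 10 genes, 3 rose and 6 fell in mRNA, where 32.9% of 14494 genes were called (16% higher and 16.9% lower), with a median log2 fold change of -0.15 over the 10 genes and 0.00 over all genes tested. Replicate pools of DRG mRNA differed by little more than sampling noise, with a mean chi-square per gene of 1.06 in sham and 1.07 in SNI, and the smallest called change of a member, that of Glul, was -0.05 on the log2 scale.
Gfap mRNA went from 15.5 and 13.8 CPM in sham to 7.80 and 7.15 CPM in SNI, so that both SNI pools lay below both sham pools. The log2 fold change was -0.97 (edgeR adjusted p = 1.1e-09, standard error 0.1001), a fold of 0.510. Slc1a2 went from 54.9 and 52.8 to 31.8 and 28.0 CPM, a log2 fold change of -0.84 (edgeR adjusted p = 8.3e-16, standard error 0.0495). Aqp4 went from 17.1 and 15.5 to 11.2 and 11.2 CPM, a log2 fold change of -0.54 (adjusted p = 5.1e-06, edgeR). With the biological coefficient of variation fixed at 0.1, which called 1.85% of genes, Gfap and Slc1a2 were the only members called.
The genes at the top of the DRG levels moved far less. S100b went from 1354 and 1372 to 1107 and 1121 CPM, a log2 fold change of -0.29 (adjusted p = 8.8e-27, edgeR). Apoe went from 3159 and 3209 to 3413 and 3429 CPM, a log2 fold change of 0.10. The standard error that edgeR gave for Apoe, 0.00309, is below the 0.00544 that counting the reads alone would give, so its adjusted p is too small, and the same is true of S100b and Gja1. Fabp7 went from 225 and 220 to 233 and 234 CPM (log2 fold change 0.07), which DESeq2 did not call and which was lost without sham replicate 2.
Aldh1l1, the folate enzyme, rose from 10.7 and 11.97 to 15.1 and 16.3 CPM, a log2 fold change of 0.47 (edgeR adjusted p = 7.9e-05, standard error 0.0887). Part of its exons, 13.4% of the bases, overlaps exons of the noncoding genes Gm45901 and Gm15756, and the strand setting of the counting is not given in the sources used here. Gja1 went from 60.1 and 62.3 to 56.1 and 53.5 CPM, a log2 fold change of -0.15. Glul went from 469 and 467 to 453 and 452 CPM, and its log2 fold change of -0.05 lost its call in 8 of 11 alternatives. Slc1a3 was not called, with 17.5 and 16.0 CPM in sham and 16.1 and 14.2 CPM in SNI (log2 fold change -0.14, standard error 0.0816, adjusted p = 0.19, edgeR), and its groups overlapped.

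In DRG footprints, 3 of the 10 genes rose and 2 fell, against 16.5% of 13038 genes called (8.2% higher and 8.25% lower). Gfap fell from 5.77 and 5.93 CPM to 4.89 and 3.73 CPM, a log2 fold change of -0.50 (edgeR adjusted p = 0.040, standard error 0.177). Its libraries held 42 to 102 footprint reads, and the call was lost without sham replicate 1 and in 6 of the 10 other alternatives, among them without sham replicate 2 and without SNI replicate 2. S100b fell from 370 and 380 to 321 and 318 CPM, a log2 fold change of -0.23. Its footprints and its mRNA therefore moved by nearly the same amount.
Fabp7 footprints rose from 237 and 234 to 265 and 267 CPM, a log2 fold change of 0.18 (adjusted p = 1.3e-04, edgeR). Aldh1l1 rose from 21.98 and 19.8 to 23.0 and 26.8 CPM, a log2 fold change of 0.31 that lost its call without sham replicate 2 and without SNI replicate 2. Apoe footprints were at 5570 and 5393 CPM in sham and 5678 and 5498 CPM in SNI, so the groups overlapped although its log2 fold change of 0.03 was called. Slc1a2 was at 20.7 and 15.8 CPM in sham and 18.1 and 12.02 CPM in SNI, and its log2 fold change of -0.28 was not called (standard error 0.118, adjusted p = 0.10, edgeR). Here too the groups overlapped, because sham replicate 2 lay below SNI replicate 1, and the gene was called when either of these was left out and with both tissues in 1 fit. Without SNI replicate 2 its log2 fold change was 0.07.

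**Figure D3:**
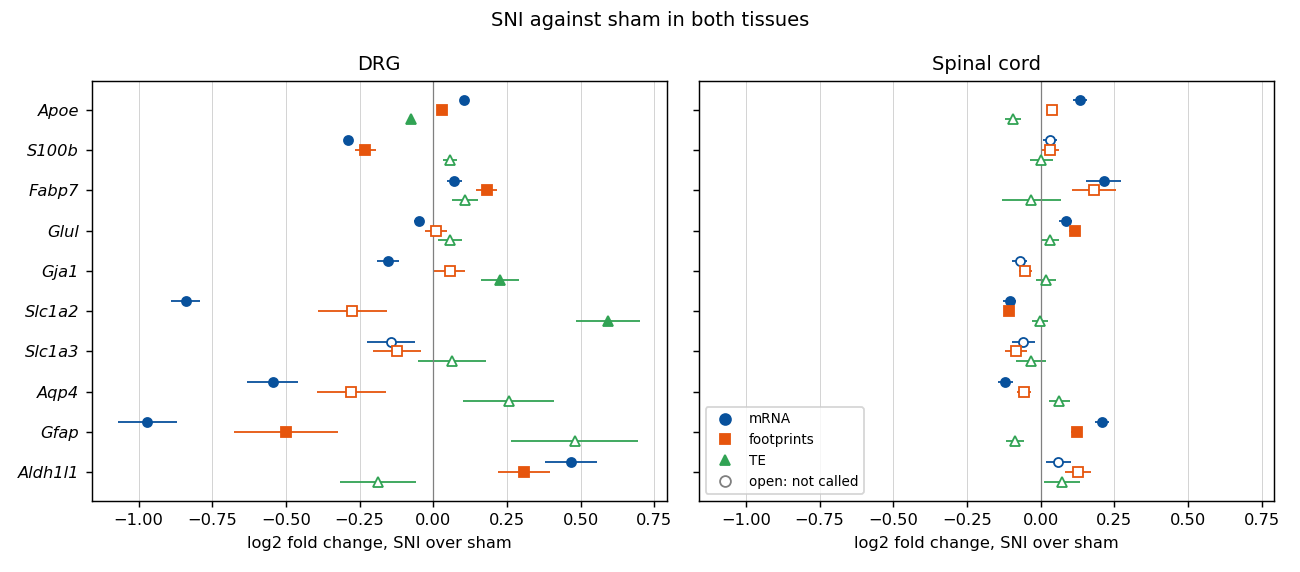
Log2 fold change, SNI over sham, of the 10 genes in DRG (left) and spinal cord (right), with bars of 1 standard error from edgeR. Circles are mRNA, squares footprints and triangles TE, filled where the adjusted p is under 0.05. In the DRG, Gfap, Slc1a2 and Aqp4 mRNA lie between -0.97 and -0.54, while in the cord all mRNA values lie between -0.12 and 0.21.

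Translation efficiency (TE), the footprint level over the mRNA level of the same lysate, rose for Slc1a2 and Gja1 and fell for Apoe in the DRG. This was 3 of 10 genes, against 7.49% of 12710 genes (4.15% higher and 3.34% lower). The log2 TE of Slc1a2 was -1.40 and -1.74 in sham and -0.81 and -1.22 in SNI, a difference of 0.59 (standard error 0.110, adjusted p = 5.7e-06, edgeR). Its mRNA fell by more than its footprints did. The log2 TE of Gja1 was 0.05 and 0.00 in sham and 0.27 and 0.23 in SNI, a difference of 0.23 (adjusted p = 0.012, edgeR), and that of Apoe was 0.82 and 0.75 in sham and 0.73 and 0.68 in SNI, a difference of -0.07. For Apoe the edgeR standard error, 0.00508, was below the counting error, 0.00751. None of the 3 calls held with DESeq2, with limma on the log2 TE of each lysate or with the fixed coefficient. Slc1a2 was also lost without sham replicate 2 and without SNI replicate 1, Gja1 without these or SNI replicate 2, and Apoe without SNI replicate 2. The log2 TE of Gfap was -1.41 and -1.22 in sham and -0.66 and -0.93 in SNI, a difference of 0.48 that was not called (standard error 0.215, adjusted p = 0.18, edgeR).

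Markers of other cells moved in the same DRG samples. Of 10 oligodendrocyte genes tested, 6 fell and 1 rose in mRNA, led by Mobp at a log2 fold change of -2.79 and Mog at -1.86, and of 10 spinal cord neuron genes 6 fell and none rose, with Slc6a5 at -1.21 and Gad2 at -0.83. Of 11 skeletal muscle genes tested 10 rose, with Ckm, the muscle creatine kinase, at 1.82, and of 16 microglia and macrophage genes 12 rose. The part of these shifts in the changes of the 10 glial genes was not tested. The Schwann cell myelin list was level, with 2 of 8 genes higher and 2 lower and a median of 0.02.
Other astrocyte genes fell more often than they rose in the DRG, 9 against 3 of 31 tested. The largest falls were in the neurotensin receptor Ntsr2, at -0.65, the GABA transporter Slc6a11, at -0.56, and Fgfr3, at -0.42. Genes known from reactive astrocytes, which other cells also express, went up instead. Of 21 tested, 17 rose and none fell, led by the complement gene C4b at 0.71, the protease inhibitor Timp1 at 0.60 and the galectin Lgals1 at 0.51. Of 12 other satellite glia genes, 3 rose and 4 fell. Foxd3, a transcription factor gene of the neural crest, rose by 0.52.
Genes that work with the glial genes gave a mixed picture in DRG mRNA. On the glutamate and glutamine cycle, 2 of 12 genes rose and 4 fell, with the glutamate transporter Slc1a1 at -0.36 and the neutral amino acid transporter Slc1a4 at 0.21. Of the Gfap partners Vim rose by 0.35, Nes by 0.21 and Plec by 0.16, and Synm fell by 0.06. On the apolipoprotein and lipid transport list 8 of 17 rose and 2 fell, with Trem2, an Apoe receptor of microglia, at 1.04, the lipid exporter Abca1 at 0.51 and the lipase Lpl at -0.90. Of 10 connexins and pannexins tested, Gjc3 rose by 0.17 and Panx2 fell by 0.22. Of 11 aquaporin and dystrophin complex genes 3 rose and 1 fell, of 9 other S100 genes 2 rose and 3 fell, of 3 other fatty acid binding proteins 1 rose and 1 fell, and of 11 folate enzymes 2 rose. S100a11, at 0.76, was the largest change on the S100 list.

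In the spinal cord the changes were small and Gfap went up. Of the 10 genes, 4 rose and 2 fell in mRNA, against 3.83% of 14723 genes called (1.64% higher and 2.19% lower), with a median log2 fold change of 0.04 over the 10 genes and -0.01 over all genes.
Gfap rose from 891 and 906 to 1024 and 1053 CPM, a log2 fold change of 0.21 (edgeR adjusted p = 4.9e-09, standard error 0.0234), or a fold of 1.16. Both SNI pools lay above both sham pools. Apoe rose from 1821 and 1892 to 1998 and 2072 CPM (log2 fold change 0.13, adjusted p = 1.1e-04, edgeR), a call lost without SNI replicate 2. Fabp7 went from 25.1 and 24.6 to 28.9 and 28.7 CPM (log2 fold change 0.21), and Glul from 1421 and 1421 to 1537 and 1475 CPM (log2 fold change 0.08).
Slc1a2 fell from 3088 and 2952 to 2806 and 2806 CPM, a log2 fold change of -0.11, and Aqp4 fell from 445 and 437 to 405 and 407 CPM, a log2 fold change of -0.12. Of the 10 genes, Slc1a3 was the only 1 whose groups overlapped in cord mRNA, so the lack of overlap sets none of the called genes apart. The share of all genes without overlap was not worked out. The calls of Slc1a2, Aqp4, Glul and Fabp7 were lost without SNI replicate 1 and without SNI replicate 2, those of Slc1a2 and Fabp7 also without sham replicate 1, and that of Fabp7 also without sham replicate 2. Gfap kept its call under every left-out library. No member passed the test against a 1.5-fold change or the fixed coefficient in the cord.

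In cord footprints, 2 of the 10 genes rose and 1 fell, against 2.85% of 12018 genes (0.999% higher and 1.85% lower). Gfap went from 971 and 958 to 1030 and 1068 CPM (log2 fold change 0.12, adjusted p = 6.9e-04, edgeR) and Glul from 1033 and 1019 to 1107 and 1115 CPM (log2 fold change 0.12). Slc1a2 fell from 2999 and 2928 to 2739 and 2761 CPM (log2 fold change -0.11). These footprints therefore moved with the mRNA of the same genes. Gfap and Glul lost their calls without sham replicate 2, and Slc1a2 lost its call with DESeq2 and with both tissues in 1 fit.
No member was called in cord TE by edgeR, where 0.27% of 11865 genes were called. At an unadjusted p under 0.05 there were 2 members, Gfap at -0.09 and Apoe at -0.09, and DESeq2 and limma also called 0. The largest difference in cord TE among the 10 genes was 0.09 in size.
In the same cord samples, 10 of 16 microglia and macrophage genes rose in mRNA and none fell, led by Trem2 at 0.57, the protease Ctss at 0.50 and the macrophage receptor Adgre1 at 0.49. Their part in the rise of Apoe, which microglia and macrophages also make, was not tested. Of 32 other astrocyte genes 1 rose and 4 fell, with the endothelin receptor Ednrb at -0.17, and of 19 genes known from reactive astrocytes 3 rose, namely Lgals1 at 0.35, Vim at 0.20 and the class I gene H2-D1 at 0.17. Of 8 other S100 genes tested 5 rose, led by S100a9 at 0.47 and S100a8 at 0.43.

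The response to SNI was then compared between the tissues, as the log2 fold change in the cord minus that in the DRG. It differed for 6 of the 10 genes in mRNA, 5 in favour of the cord and 1 of the DRG, against 17.2% of 13557 genes (9.13% higher and 8.1% lower). Gfap had the widest difference, 1.18 (standard error 0.0935, counting error 0.0968, adjusted p = 1.0e-13, edgeR), with a fall in the DRG and a rise in the cord. It was the only member called at the fixed coefficient, which called 0.435% of genes. For Gfap and Aqp4 the edgeR error was below that of counting here, so their adjusted p-values are too small. The difference was 0.73 for Slc1a2 and 0.42 for Aqp4, which fell in both tissues and more in the DRG, and 0.32 for S100b. It was 0.13 for Glul and -0.41 for Aldh1l1, and Aldh1l1 lost its call without DRG sham replicate 1.
In footprints the response differed for 2 genes, against 8.51% of 11510 genes (3.68% higher and 4.84% lower). The difference was 0.62 for Gfap (standard error 0.107, counting error 0.172, adjusted p = 0.0067, edgeR) and 0.26 for S100b (adjusted p = 3.6e-07, edgeR). With an error below that of counting, the adjusted p of Gfap is too small, and its call was lost without DRG sham replicate 2 and without DRG SNI replicate 2. S100b kept its call under every left-out library.

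All 10 genes had a higher TE in sham cord than in sham DRG. The background was that 43.1% of 12504 genes differed (25% higher and 18.1% lower), and 55.1% of all genes lay above 0. The median log2 difference was 0.54 over the 10 genes and 0.04 over all genes. Slc1a2 had the widest gap, with a log2 TE of -0.04 and -0.01 in cord and -1.40 and -1.74 in DRG, a difference of 1.59 (standard error 0.0737, adjusted p = 1.5e-99, edgeR). Gfap followed, with 0.12 and 0.08 in cord and -1.41 and -1.22 in DRG, a difference of 1.40 (standard error 0.129, adjusted p = 9.5e-26, edgeR). The counting error was 0.0776 for Slc1a2 and 0.136 for Gfap, above the edgeR standard error in both, so these adjusted p-values may be too small. At gaps this wide the 2 errors are not like measures and do not settle it. The other 8 differences ran from 0.29 for Apoe to 0.61 for Gja1 and Aqp4. At the fixed coefficient, which called 6.6% of genes, Slc1a2 and Gfap were the only members called. The same direction was seen in 10 of 12 oligodendrocyte genes and 8 of 11 spinal cord neuron genes, with medians of 0.94 and 1.41, and in 25 of 32 other astrocyte genes, with a median of 0.47. Of 12 other satellite glia genes 6 were higher and none lower, and the Schwann cell myelin list had a median of 0.02. How far the TE gap of Slc1a2 and Gfap goes with that of these lists was not tested.

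**Figure D4:**
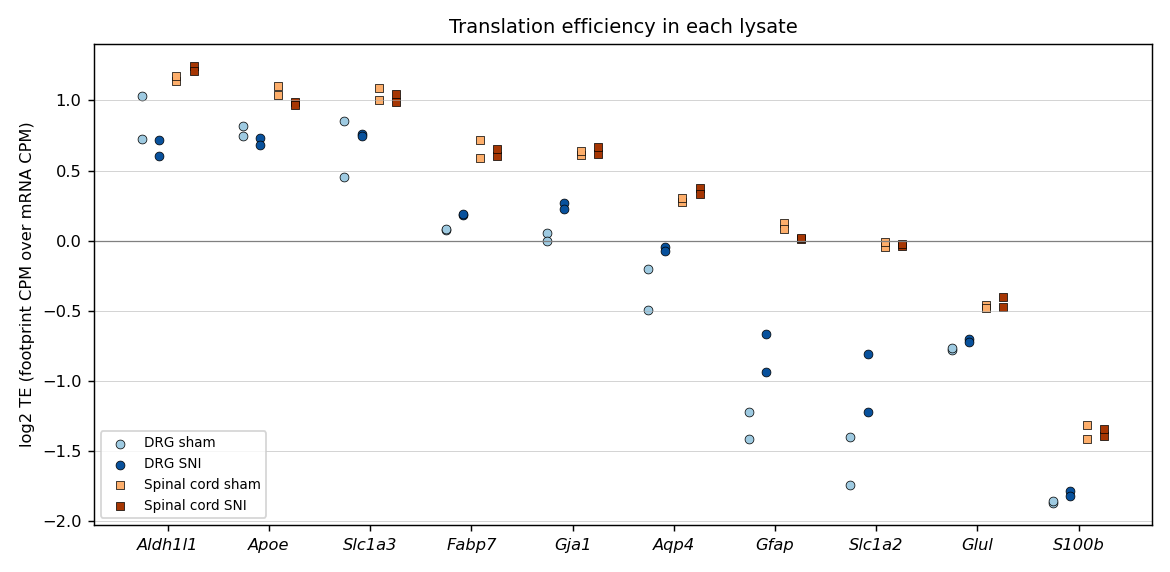
Log2 TE of each of the 10 genes in each lysate, the footprint CPM over the mRNA CPM. Circles are DRG and squares spinal cord, light for sham and dark for SNI, with 1 point per pool. Aldh1l1, Apoe and Slc1a3 are at the top and S100b at the bottom in all groups, every gene is higher in cord, and Slc1a2 and Gfap have the widest gap.

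The order of the 10 genes by TE was nearly the same in both tissues. Aldh1l1, Apoe and Slc1a3 were the highest 3 genes in all 4 groups and S100b the lowest. In sham cord, log2 TE was 1.15 ± 0.0239 for Aldh1l1 (SD, n = 2), 1.07 ± 0.0445 for Apoe and 1.05 ± 0.0628 for Slc1a3, and Apoe and Slc1a3 did not differ beyond their spread while both pools of Aldh1l1 lay just above them. Aldh1l1 stood at percentile 95.7 of the protein-coding genes tested and Apoe at 94.7. S100b was at -1.36 ± 0.0734 in sham cord, percentile 8.08, and at -1.86 ± 0.0112 in sham DRG, percentile 4.33. The S100b mRNA thus carried few footprints for its level in both tissues.
Footprints fall on the coding sequence and mRNA reads on the whole transcript, so this ratio also moves with the coding share of a transcript. The main transcript of S100b is 18.6% coding, with 276 of 1484 bases, while that of Apoe is 66.3% coding and that of Aldh1l1 64.8%. Slc1a2, with 14.8% of its 11595 bases coding, is below S100b in this share and above it in TE. In sham DRG, Spearman's rho of log2 TE with the coding share was 0.75 over the 10 genes and 0.42 over 11136 protein-coding genes, and in sham cord 0.70 and 0.38. The genes share libraries and are not independent replicates.

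For each gene, the 3 genes with the most similar mRNA pattern were found, by the Euclidean distance of log2 CPM centred on each gene's mean over the 8 mRNA libraries, among 13556 genes. The genes nearest to Gfap were Lamp5, a gene of a class of inhibitory neurons, Slc6a5 and Gad2, at distances of 0.269 to 0.556, where the median gene was at 9.28. Those nearest to Slc1a2 were the neuronal chloride transporter gene Slc12a5, Gad2 and the vesicular GABA transporter gene Slc32a1, at 0.300 to 0.409. So the genes closest to Gfap and Slc1a2 were mostly genes of inhibitory neurons of the cord. The distance is set mostly by the gap between tissues, which is far wider than the changes after SNI, and a near gene need not share the response. Gfap, Slc6a5 and Gad2 all fell in the DRG. In the cord Gfap rose, while Slc6a5 went from 531 to 517 CPM and Gad2 from 136 to 126 CPM (means of 2 pools). For Aqp4 they were Adcyap1r1, Ntsr2 and Efnb3, at 0.216 to 0.286, and for Glul Zfp385a, Bcan and Tprn, at 0.0842 to 0.110. The 3 genes nearest to Gja1 were Abat, Ttyh2 and Rnd2, those nearest to Slc1a3 were Cdkl1, Aldh5a1 and Cap2, and those nearest to Aldh1l1 were Doc2b, Atg9b and Ccdc106. The nearest were Fam102b, Itpripl1 and Tmod1 for Fabp7, Pdhb, Ttc1 and Lcorl for S100b, and Npepl1, Bud31 and Ctsz for Apoe. For S100b and Apoe the distances mean less, because the median gene was already at 1.04 and 1.29.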

How the data were processed

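The series holds 16 libraries of ribosome footprints or poly(A)+ mRNA in 8 groups of 2 replicates, each a pool of 10 mice. The deposited read counts per gene were made by the authors, who used Bowtie 1.1.2 against rRNA and tRNA, then STAR 2.5.2b for alignment (GRCm38.p5) and HTSeq for counting, whose version and strand setting are not given in the sources used here. By the paper's methods the libraries did not mark strand, so a gene and its antisense partner cannot be told apart. The deposited RPKM, TE ratios and fold changes of the authors were not used here.

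Groups came from the sample labels. Counts were normalized by TMM (edgeR 4.0.16, R 4.3.3) within each assay over all 8 libraries and tested with edgeR's quasi-likelihood test, SNI against sham within each tissue, on genes with a sum of at least 128 reads in the fitted libraries of each assay. TE was the interaction of surgery (or tissue) and assay, with lysate terms. The response between tissues was an interaction. Adjusted p is by Benjamini-Hochberg over all genes tested. For log2 TE per lysate, 0.5 reads were added to each count. The edgeR standard error is the size of the log2 difference over the square root of the F statistic. It was set beside the counting error of the summed reads. Coding shares come from the main GENCODE M21 transcript. Python 3.11.15, pandas 2.3.3 and scipy 1.17.1 made the tables, and promoter windows are from RefSeq.

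The 10 members, the 21 lists of other genes and the tests were chosen with earlier results of these data known. The named genes were all members, up to 3 called genes of each list with the largest change in a comparison, and the 3 nearest genes of each member. Some genes, such as Vim, Nes and Ednrb, stand on more than 1 list. The values of 1 listed gene are not reported here. Oligodendrocyte and cord neuron genes given by their share of the cord level were picked from their lists after the values were seen. The sensory neuron, injured sensory neuron, endothelial, fibroblast and adipocyte lists served as marker checks only. In the DRG mRNA, 4 and 10 of 16 sensory neuron genes rose and fell, all 9 injured sensory neuron genes rose, 7 of 10 endothelial and 6 of 9 fibroblast genes rose, and 0 of 6 adipocyte genes were called.

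The alternatives were DESeq2 1.42.0, library sizes alone, no filter beyond 1 read, a likelihood ratio test at a biological coefficient of variation of 0.1, a test against a 1.5-fold change, a replicate block, both tissues in 1 fit or (for TE) no lysate terms and limma 3.58.1 on log2 TE, and leaving out each lysate in turn. Each test was first run on simulated data in which 200 genes changed. The simulation gave all genes the same spread and, apart from the changed genes, both tissues the same levels. It therefore checked the running of the tests and not the calls made here. Replicates of a group differed by more than sampling noise, with a mean chi-square per gene of 1.06 to 3.30, so no library was counted as a copy of another. In DRG mRNA the excess was small, at 1.06 in sham and 1.07 in SNI. The chi-square cannot show whether 2 libraries came from separate pools, which rests on the paper's methods.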

Additional observations from a re-analysis of the deposited data

Results flagged for a closer look

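The 8 values below were flagged because the response to SNI differed between the tissues by a test of the difference itself, an interaction in edgeR, given as the log2 fold change in cord minus that in DRG. With 2 pools per group, no test for a deviating library was made. In mRNA they were Gfap at 1.18, Slc1a2 at 0.73, Aqp4 at 0.42, S100b at 0.32, Glul at 0.13 and Aldh1l1 at -0.41. In footprints they were Gfap at 0.62 and S100b at 0.26. In DRG mRNA, 6 of 10 oligodendrocyte and 6 of 10 cord neuron genes tested fell, as Gfap, Slc1a2 and Aqp4 did, while in DRG footprints 2 of 6 oligodendrocyte genes rose and none fell, and 2 of 3 cord neuron genes fell. Their part in these differences was not tested.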

How the results depend on the processing

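Of 1280 values recomputed under the alternatives, none that was called changed sign. Of those for called values 577 stayed called and 144 were no longer called, and of those for values not called 543 stayed so and 16 became called. The number of members called moved by more than 1.5 times as follows, and the cause was not tested. With the biological coefficient of variation fixed at 0.1 and with the test against a 1.5-fold change alike, it was 2 in place of 9 in DRG mRNA, 0 in place of 5 in DRG footprints, 0 in place of 3 in DRG TE, 0 in place of 6 in cord mRNA, 0 in place of 3 in cord footprints, 1 in place of 6 for the mRNA response between tissues, 0 in place of 2 for the footprint response and 2 in place of 10 for TE between sham tissues. With DESeq2 it was 2 in DRG footprints, 0 in DRG TE and 3 in cord mRNA, and with limma it was 0 in DRG TE. The fixed coefficient also lowered the share of all genes called. It went from 32.9% to 1.85% in DRG mRNA, from 17.2% to 0.435% for the mRNA response and from 43.1% to 6.6% for TE between sham tissues. The shares under the other settings are not given here, so these counts and those below cannot be read as results about the members alone.

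Leaving out 1 lysate at a time gave 7 to 9 members in DRG mRNA, 3 to 5 in DRG footprints, 1 to 3 in DRG TE, 1 to 6 in cord mRNA, 1 to 4 in cord footprints, 0 to 1 in cord TE, 5 to 6 for the mRNA response, 1 to 3 for the footprint response and 9 to 10 for TE between sham tissues. A group then has 1 pool, which is assumed to vary like the others. The lowest counts came without DRG sham replicate 2 and without DRG SNI replicate 2 in DRG footprints (3 each) and in the footprint response (1 each), without these or DRG SNI replicate 1 in DRG TE (1 each), without cord SNI replicate 2 (1) and replicate 1 (2) in cord mRNA, and without cord sham replicate 2 in cord footprints (1). The count of 1 in cord TE came without cord sham replicate 2 and was Apoe.

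The replicate numbers were not taken to pair the lysates in the main tests. Same-numbered sham and SNI lysates deviated together with a correlation of 0.19 in DRG footprints. It was 0.05 in DRG mRNA, 0.00 in cord mRNA and -0.03 in cord footprints. Whether the numbers mark a shared step for the DRG footprints was not tested. With a replicate block the counts were 9 in DRG mRNA, 6 in DRG footprints, 4 in DRG TE, 7 in cord mRNA, 3 in cord footprints and 1 in cord TE, and 6 and 2 for the mRNA and footprint responses. The DRG footprints of Slc1a2, not called without it, were called with the block (log2 fold change -0.31, adjusted p = 0.015, edgeR).

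In DRG mRNA, Gfap and Slc1a2 were called under all 11 alternatives (highest adjusted p = 0.0079 and 1.9e-04, edgeR or DESeq2). So was the mRNA response of Gfap under all 14 (highest 8.7e-05). Depth limited Gfap in DRG footprints, with 42 reads in the shallowest library.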
